A study of Mus musculus with 16 samples.

Results

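Macrophages washed from the lungs of mice lacking Toll-like receptor 3 (genotype label TLR3-KO) were compared with those of wild-type mice (WT), both sampled following pneumonia. The comparison holds 4 TLR3-KO and 4 WT libraries, numbered 1 to 4 in each group, which are 8 of the 16 libraries of the series. All 12455 genes that passed a filter on low counts were tested. The other 8 libraries, 4 TLR3-KO and 4 WT controls with the treatment label none, are not among those compared but are used beside them. They also entered the same edgeR fit, so its low-count filter, scaling and estimate of spread draw on all 16 libraries. Infection was by 500 CFU, per the labels' protocols, of Klebsiella pneumoniae (strain 43816, serotype 2) in 30 µl, injected deep into the hypopharynx under isoflurane, with saline as the other inoculum. The labels give neither the time between infection and lavage, nor the background strain, the construction of the knockout allele or the age of the mice. The mice are male by the series title. Levels are given as CPM, the count of a gene scaled to the total of its library. Xist was at most 0.139 CPM in all 8 libraries after pneumonia, and 4 genes of the Y chromosome summed to between 186 and 235 CPM. Nothing in the labels ties a library to 1 mouse, so p-values cover the spread between libraries, which may be technical.

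TLR3 sits in endosomes and binds double-stranded RNA. It signals through the adaptor TRIF (gene Ticam1) to IRF3, which drives type I interferon, and to NF-kB, which drives inflammatory cytokines. Alveolar macrophages are the resident phagocytes of the air spaces. They clear bacteria, dead cells and surfactant, the lipid and protein film made by the alveolar epithelium.

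Total counts lay between 29667102 and 52907625 per library. In a principal component analysis of the 8 libraries the leading component took 44.6% of the variance. TLR3-KO libraries 1, 2 and 3 lay on one side of it and WT libraries 1, 2 and 3 on the other, but TLR3-KO 4 and WT 4 both lay between them, and WT 4 lay nearer to TLR3-KO 1 to 3 than TLR3-KO 4 did. WT 1 stood apart on the second component, which held 26.5%. The summed level of 30 alveolar macrophage markers ranged from 42799 to 45826 CPM in TLR3-KO and from 39011 to 48914 CPM in WT, and none of these markers was at 0. In bulk RNA, fewer cells of a type and less RNA per cell cannot be told apart.

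The knocked-out gene followed the labels. The gene Tlr3 spans bases 45395665 to 45411080 of chromosome 8 (mm10, minus strand, ENSMUSG00000031639.12). Its levels were 0.353, 0.677, 0.472 and 0.464 CPM in TLR3-KO 1 to 4, which are counts of 15, 32, 14 and 20, and 2.35, 3.20, 3.93 and 4.27 CPM in WT 1 to 4. Every TLR3-KO library lay below every WT library, and the TLR3-KO mean was 14.3% of the WT mean (exact permutation test, two-sided, p = 0.0286, the smallest that 4 against 4 libraries allow). The exons behind the remaining counts cannot be seen in a total per gene.

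Between the genotypes after pneumonia 77 of 12455 genes (0.618%) were called, meaning an adjusted p under 0.05 in edgeR's quasi-likelihood test with Benjamini-Hochberg adjustment over all genes tested. Of these 49 (0.393%) were higher in TLR3-KO and 28 (0.225%) lower, and 54 differed at least 2-fold, 43 higher and 11 lower. The levels of the 2 genotypes did not overlap for 76 of the 77, against 1534 of all 12455 (12.3%). The exception was 6330409N04Rik (current symbol Spryd7). Because the calls were made on these same libraries, their lack of overlap largely follows from the choice and is no separate support. Many calls lay at low levels: 29 of the 77 averaged under 5 CPM in both groups. The median log2 fold change of all genes was -0.01, and 48.6% were positive. The calls fell into a group around Tlr3 on chromosome 8, genes of the lung epithelium, genes of mitosis, and single genes of other functions.

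The count of calls rested on single libraries. Without TLR3-KO 1, 2 and 3 in turn it was 18, 17 and 19, and 76 without TLR3-KO 4. Without WT 1, 2 and 3 it was 31, 18 and 20, and 450 without WT 4. All 77 genes kept their direction in each of these fits. DESeq2 called 444 genes, with all 77 among them.

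Genes of several functions around Tlr3 differed between the genotypes. Within 10 Mb of Tlr3 10 of 46 tested genes (21.7%) were called, 4 higher and 6 lower in TLR3-KO. On the rest of chromosome 8 7 of 631 (1.11%) were called, and on other chromosomes 58 of 11625 (0.499%). Within 20 Mb the share was 16 of 101 (15.8%), and beyond it a single gene of 576, Znrf1, was called. The count of 10 within 10 Mb fell to 5 without TLR3-KO 1, 2 or 3, to 6 without WT 1 or 3 and to 4 without WT 2.

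**Figure D1:**
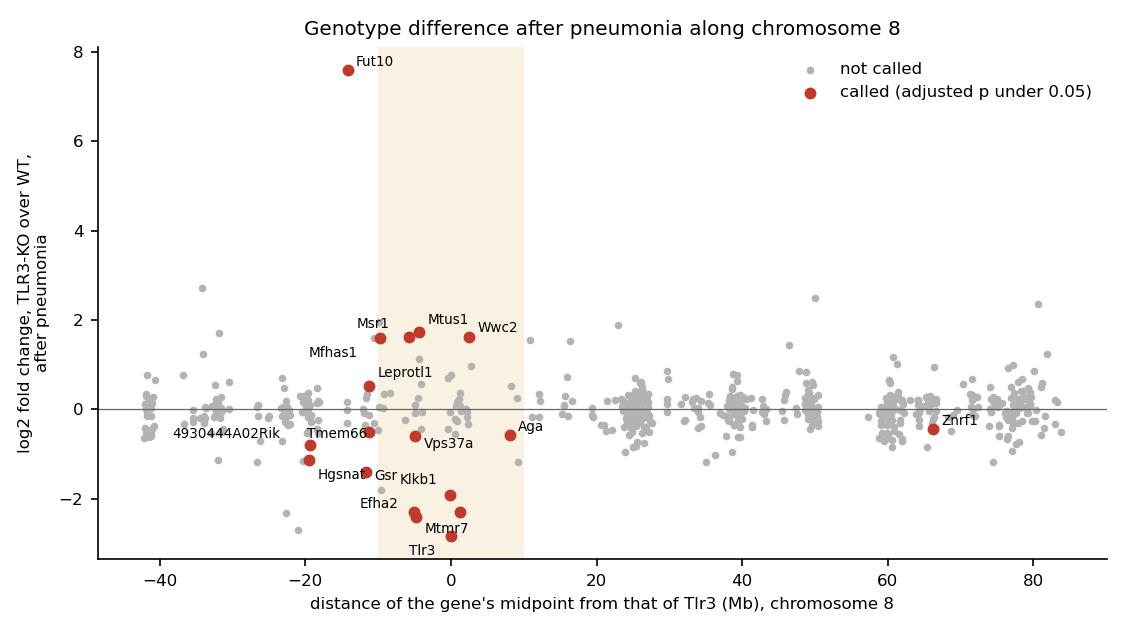
Log2 fold change of TLR3-KO over WT after pneumonia (vertical axis) for each tested gene of chromosome 8, by the distance in Mb of its midpoint from that of Tlr3 (horizontal axis). Red points were called, the shaded band spans 10 Mb to either side, and 16 of the 17 called genes other than Tlr3 lie within 20 Mb. The value of Fut10 comes from WT libraries with counts of 0 or 1 and is not a measured size.

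Among the genes higher in TLR3-KO, Mfhas1, a leucine-rich repeat protein that modulates Toll-like receptor signalling, lies 9.77 Mb from Tlr3 (chromosome 8, 35587798 to 35679449). Its levels were 65.3, 69.4, 73.1 and 57.1 CPM in TLR3-KO 1 to 4 and 17.9, 22.1, 21.9 and 23.8 CPM in WT. The lowest TLR3-KO library was above the highest WT library by more than the whole range of either group (log2 fold change 1.60, SE 0.11, edgeR adjusted p = 7.36e-07). Msr1, the class A scavenger receptor of macrophages that takes up modified lipoproteins and bacteria, lies 5.79 Mb from Tlr3 (39581685 to 39642673). Its levels were 126, 140, 141 and 133 CPM in TLR3-KO and 33.4, 41.6, 52.3 and 44.2 CPM in WT, again without overlap (log2 fold change 1.63, SE 0.17, edgeR adjusted p = 0.000115). Wwc2 and Mtus1 were higher by 1.63 and 1.73 on the log2 scale, and Leprotl1 by 0.53. Fut10, a fucosyltransferase 14.2 Mb from Tlr3, had counts of 130, 146, 90 and 96 in the TLR3-KO libraries but 0, 0, 1 and 1 in WT. Over the groups these are counts of 462 and 2, a ratio of 244 after scaling to library totals (95% exact binomial interval 67.1 to 2018, which covers counting error only).

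Among the genes lower in TLR3-KO, Gsr, glutathione reductase, which regenerates reduced glutathione, lies 11.7 Mb from Tlr3 (33652523 to 33698163). It was at 293, 301, 326 and 319 CPM in TLR3-KO and at 609, 982, 890 and 739 CPM in WT (log2 fold change -1.40, SE 0.23, edgeR adjusted p = 0.0111). Hgsnat, a lysosomal enzyme of heparan sulfate breakdown, averaged 57.6 ± 1.53 CPM in TLR3-KO against 123 ± 16.3 CPM in WT (SD, n = 4 each). Mtmr7, a myotubularin-related lipid phosphatase, averaged 12.8 ± 1.13 and 66.0 ± 7.91 CPM. It overlaps Vps37a on the opposite strand, which was also called (log2 fold change -0.59), and since the strand setting of the counting is not given, reads of such a pair cannot be told apart. Efha2 (Micu3), Klkb1, 4930444A02Rik (Pomk), Aga, Tmem66 (Saraf) and Znrf1 were lower by values from 2.30 down to 0.44 on the log2 scale.

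The chromosome 8 genes kept their direction in control mice. All 17 called genes other than Tlr3 had the same sign in controls, though Znrf1 was only at -0.03, and 9 of the 17 were called there. The 9 were Mtmr7, Efha2, Gsr, Hgsnat, 4930444A02Rik, Leprotl1, Mfhas1, Wwc2 and Fut10. Of the 59 called genes not placed on chromosome 8, 45 had the same sign in controls and 9 were called there. Among all tested genes 46.2% had the same sign. Across the 46 tested genes within 10 Mb the fold changes of the 2 states had a Pearson correlation of 0.83, and across the 11625 on other chromosomes 0.04. For called genes alone it was 0.95 across the 10 within 10 Mb and 0.51 across the 58 on other chromosomes. These are correlations across genes, which are not independent replicates. Over all genes 87 (0.699%) were called in controls, 33 higher and 54 lower in TLR3-KO. The 2 sets of calls shared 19 genes, 24.7% of those after pneumonia and 21.8% of those in controls, all in the same direction. Of the control libraries, 3 of the TLR3-KO group carried Xist and all others lacked it. The control comparison therefore sets a group of mostly Xist-positive libraries against Xist-negative ones, and the part of sex in it cannot be told apart from genotype. With TLR3-KO control 4, which lacked Xist, as the only TLR3-KO control, 15 genes were called, but the spread then comes from the other groups and that 1 library is assumed to vary like them.

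**Figure D2:**
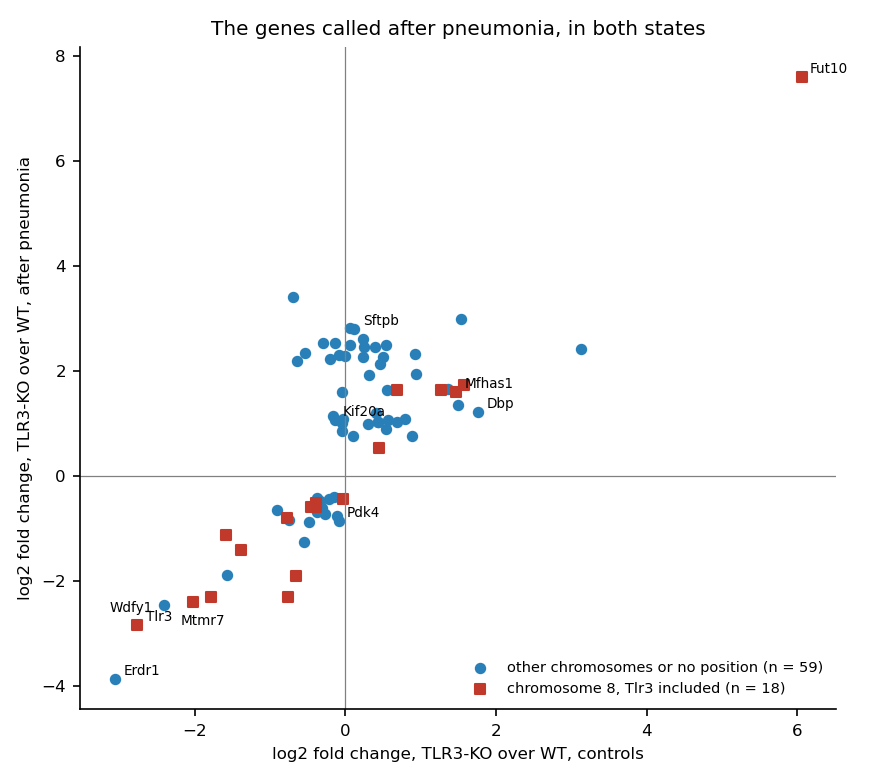
Log2 fold change of TLR3-KO over WT in controls (horizontal axis) and after pneumonia (vertical axis) for the 77 genes called after pneumonia. Red squares are the 18 genes of chromosome 8, Tlr3 included, most of which lie near the diagonal, while most blue points above 2 on the vertical axis, the epithelial genes among them, lie near 0 on the horizontal axis.

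Outside chromosome 8, 9 genes were called in both states. Wdfy1, a protein that recruits TRIF to TLR3 and TLR4, lies on chromosome 1 (79702262 to 79776143) and had the lowest adjusted p of the comparison. Its levels were 12, 10.9, 12.3 and 14.8 CPM in TLR3-KO and 67.2, 68.7, 69.4 and 64.0 CPM in WT. The groups were far apart beside their ranges (log2 fold change -2.46, SE 0.13, edgeR adjusted p = 2.5e-08), and the controls gave -2.41. Erdr1 was at 16.4, 14.6, 8.63 and 20.4 CPM against 201, 277, 285 and 98.5 CPM. It belongs to the pseudoautosomal region, whose copies are hard to place, and had no position in the annotation, so its value is uncertain. Dhcr7, which makes the last step to cholesterol, was lower (-0.65), as was Gm6498 (-1.88). Higher in both states were Cd59a, an inhibitor of the complement attack complex (2.41), the adenylate cyclase Adcy4 (1.66), Arhgap22 (1.35), Dbp, an output gene of the circadian clock (1.22), and Cd101 (0.76).

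**Figure D3:**
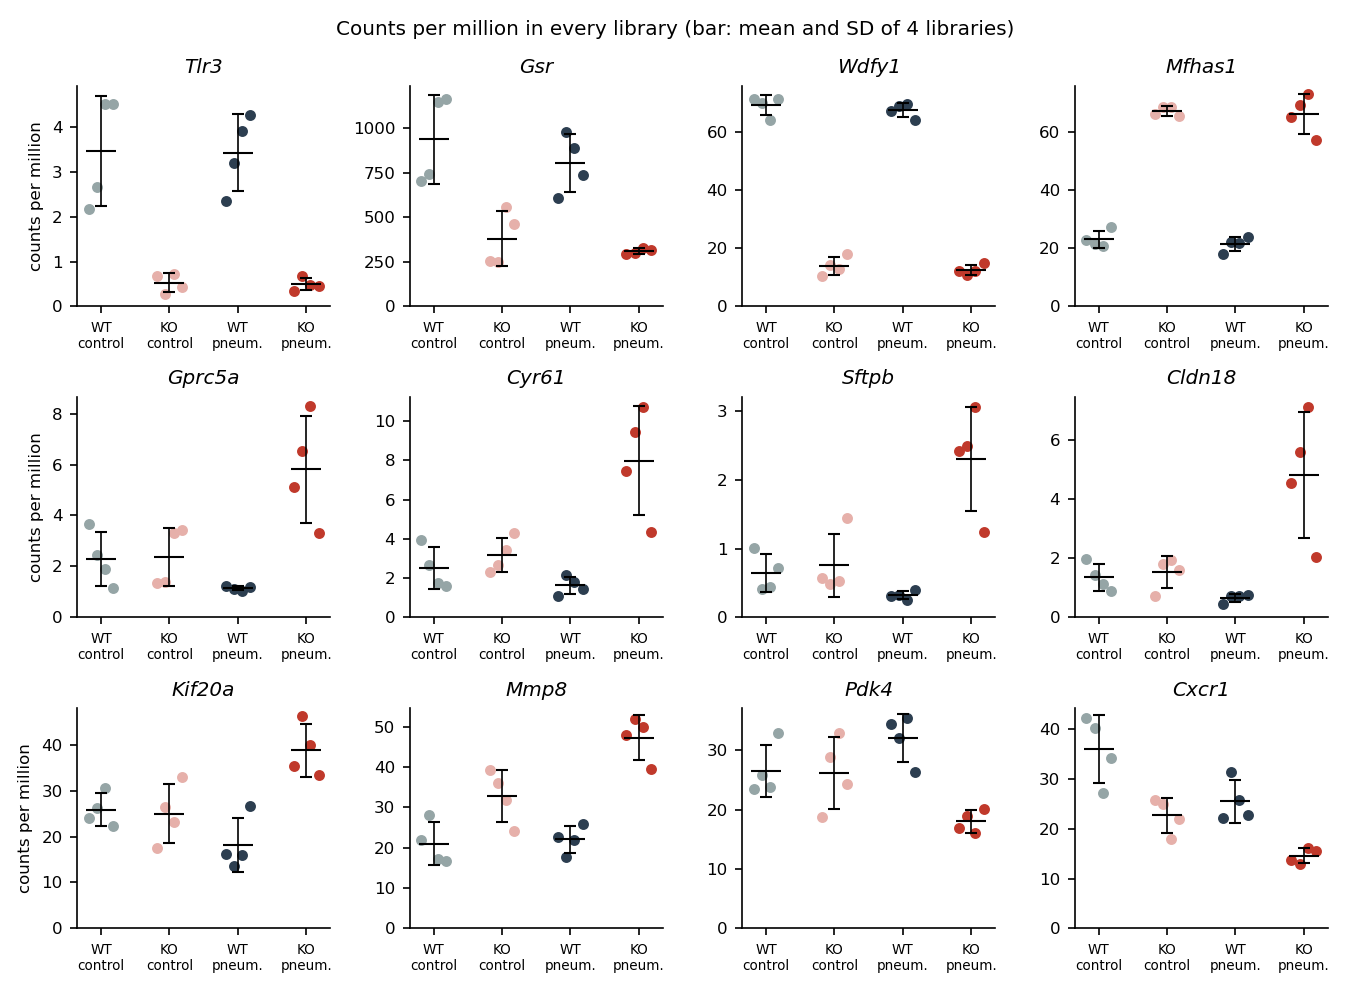
CPM in every library for 12 genes, by group (grey, WT controls; pink, TLR3-KO controls; dark blue, WT after pneumonia; red, TLR3-KO after pneumonia), with a black bar for the mean and SD of 4 libraries. Tlr3, Gsr, Wdfy1 and Mfhas1 part the genotypes in both states, while Gprc5a, Cyr61, Sftpb and Cldn18 are high in the red group and overlap between the control groups.

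Genes of the lung epithelium were among those higher in TLR3-KO after pneumonia. Of 22 tested members of an epithelial list 6 were called, all higher: the surfactant proteins Sftpa1, Sftpb and Sftpd, the tight junction protein Cldn18, the water channel Aqp5 and Ager, a receptor abundant in flat type I cells. The background for higher calls was 0.393%. The list's median log2 fold change was 1.12, with 16 of 22 positive, beside -0.01 for all genes, and in controls it was 0.15. Cldn18 was at 4.54, 5.58, 7.11 and 2.04 CPM in TLR3-KO and at 0.466, 0.718, 0.731 and 0.756 CPM in WT (log2 fold change 2.81, SE 0.40, edgeR adjusted p = 0.00396). Sftpb (chromosome 6, 72304610 to 72314371), which the surfactant film needs to spread, was at 2.42, 2.49, 3.07 and 1.25 CPM against 0.310, 0.331, 0.251 and 0.397 CPM. These are counts of 54 to 118 per TLR3-KO library and 11 to 21 per WT library (log2 fold change 2.79, SE 0.42, edgeR adjusted p = 0.00545). In both genes TLR3-KO 4 was the lowest of its group and still above every WT library.

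Other called genes known from epithelia moved with them, chosen here after their values were seen. They include the claudin Cldn3 (2.61), the LIM domain protein Lmo7 (2.54), the phosphatase Ptprf (2.34), the cornified envelope protein Ppl (2.28), the membrane protease St14 (1.63) and the chloride channel Ano1 (2.54). Gprc5a, a receptor of lung epithelium, was at 5.13, 6.53, 8.29 and 3.32 CPM in TLR3-KO and at 1.24, 1.13, 1.03 and 1.21 CPM in WT (log2 fold change 2.30, SE 0.40, edgeR adjusted p = 0.0171). Cyr61 (current symbol Ccn1), a secreted matrix protein, was at 7.46, 9.43, 10.7 and 4.36 CPM against 1.11, 2.15, 1.81 and 1.42 CPM (log2 fold change 2.27, SE 0.34, edgeR adjusted p = 0.00567). Emp2, a membrane protein abundant in lung, was higher by 2.14.

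Within the TLR3-KO group the genes called higher ranked the libraries in a similar way. TLR3-KO 4 was the lowest of its group in 36 of the 49 genes called higher (73.5%), beside 32% of all genes tested, and TLR3-KO 3 the highest in 28 (57.1%, beside 28.4%). Summed over the 22 members of the epithelial list, the level was 304, 334, 350 and 257 CPM in TLR3-KO 1 to 4 and 228, 187, 207 and 240 CPM in WT. Most of that sum came from Cdh1, Abca3, Napsa and Epcam, none of which was called. Scgb1a1, the club cell secretoglobin, averaged 2.19 CPM in TLR3-KO against 5.33 CPM in WT, and was not called. No member of the list was at 0 over the 8 libraries. Epithelial RNA in a macrophage preparation was not separately measured, and its part in the values of other genes was not tested. Without any one of TLR3-KO 1 to 3 or WT 1 to 3 the list had 2 called members, and with genes of at least 5 CPM in 3 libraries alone it had 0.

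**Figure D4:**
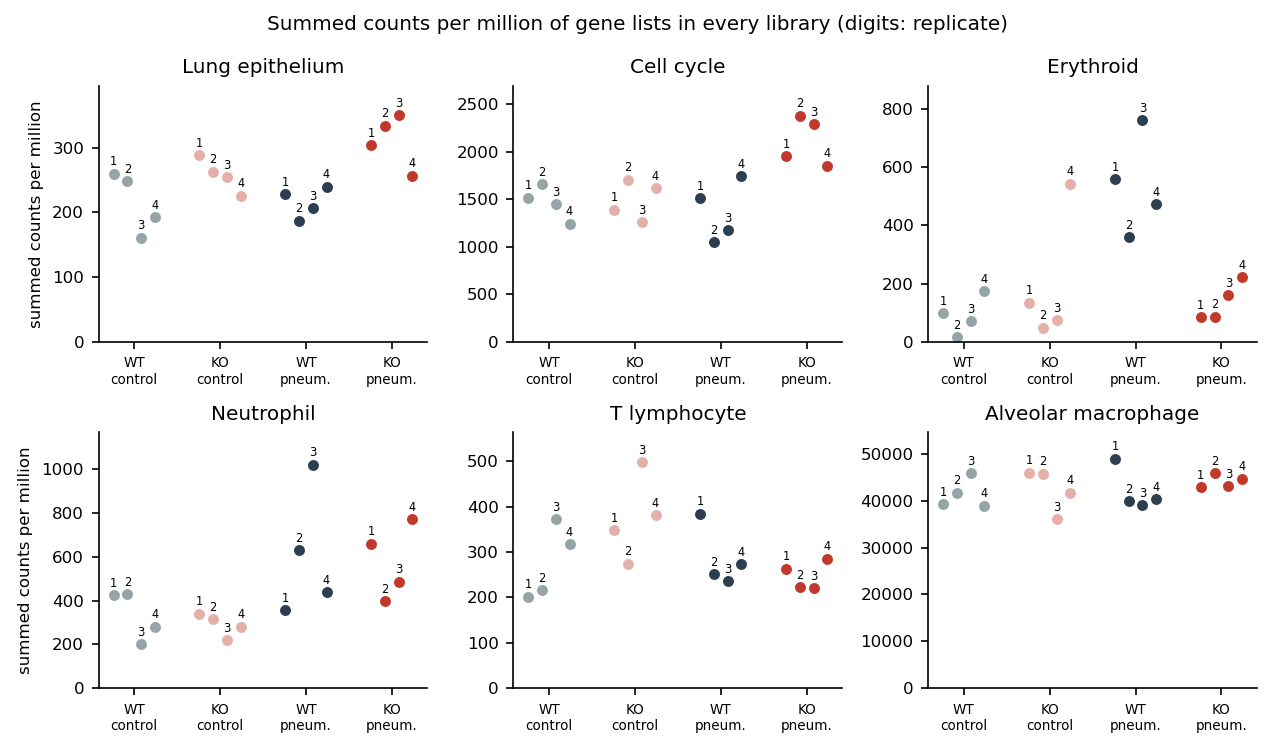
Summed CPM (vertical axes, each from 0) of 6 gene lists in every library, by group, with the replicate number above each point. TLR3-KO libraries after pneumonia lie above WT for the epithelial and cell cycle lists and below for the erythroid list, while the other lists overlap.

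Cell cycle genes were mostly higher in TLR3-KO after pneumonia, but a single one passed the test. Of 45 tested members 44 had a positive log2 fold change, with a median of 0.70 (all genes -0.01; controls -0.12), and 22 were higher without overlap between genotypes, beside 9.14% of all genes. A single member was called, where the background for higher calls was 0.393%. It was Kif20a, a kinesin of the dividing cell's midzone. It was at 35.4, 46.3, 40.0 and 33.3 CPM in TLR3-KO and at 16.1, 13.5, 16 and 26.7 CPM in WT (log2 fold change 1.06, SE 0.21, edgeR adjusted p = 0.0347). It overlaps Cdc23 on the opposite strand. Plk1, the polo-like kinase of mitosis, Cdc20, an activator of the anaphase-promoting complex, and Ccnb1, cyclin B1, came next, with log2 fold changes of 1.11, 0.96 and 0.86 and edgeR adjusted p of 0.0612, 0.0617 and 0.0637. Plk1 was at 23.3, 30.7, 28.1 and 22.4 CPM in TLR3-KO and at 11.1, 7.54, 9.35 and 19.3 CPM in WT. In each of these genes WT 4 was the highest WT library and stood nearest to the TLR3-KO values. Without WT 4, 22 members were called. Without any one of the other libraries but TLR3-KO 4, 0 were, and DESeq2 called 17. Outside the list the mitotic genes Kif18b (1.15) and Fam83d (1.08) and the kinase Wee1 (0.85), which restrains entry into mitosis, were called higher. The summed level of the list was 1955, 2383, 2290 and 1856 CPM in TLR3-KO and 1512, 1047, 1174 and 1747 CPM in WT.

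Upstream sequences of 5 of these genes are shown because promoters of genes expressed in mitosis are known to carry CCAAT boxes and an element called CHR, read here as TTTGAA. The 250 bases before each RefSeq start, on GRCm38.p6 and in the gene's direction, were Kif18b at chr11:102925125-102925374 (minus strand), Fam83d at chr2:158767849-158768098 (plus strand), Plk1 at chr7:122159185-122159434 (plus strand), Cdc20 at chr4:118437344-118437593 (minus strand) and Ccnb1 at chr13:100786487-100786736 (minus strand). Capitals mark CCAAT and TTTGAA on either strand (ATTGG and TTCAAA on the other), and no matches of the 2 motifs overlapped in these sequences.

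Kif18b: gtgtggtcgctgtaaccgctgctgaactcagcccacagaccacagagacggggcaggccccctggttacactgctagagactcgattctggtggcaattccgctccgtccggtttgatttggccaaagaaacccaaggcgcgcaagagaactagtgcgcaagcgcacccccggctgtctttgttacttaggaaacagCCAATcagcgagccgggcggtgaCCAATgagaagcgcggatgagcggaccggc

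Fam83d: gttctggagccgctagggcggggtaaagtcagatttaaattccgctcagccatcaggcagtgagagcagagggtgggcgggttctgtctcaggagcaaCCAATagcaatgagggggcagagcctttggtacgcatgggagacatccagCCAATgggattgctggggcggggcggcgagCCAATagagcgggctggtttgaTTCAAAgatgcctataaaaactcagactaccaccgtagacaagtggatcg

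Plk1: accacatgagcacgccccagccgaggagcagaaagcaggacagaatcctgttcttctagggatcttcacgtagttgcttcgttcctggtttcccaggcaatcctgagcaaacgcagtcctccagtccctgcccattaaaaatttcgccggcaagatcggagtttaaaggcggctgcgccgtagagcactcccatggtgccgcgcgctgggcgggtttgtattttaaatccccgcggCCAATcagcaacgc

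Cdc20: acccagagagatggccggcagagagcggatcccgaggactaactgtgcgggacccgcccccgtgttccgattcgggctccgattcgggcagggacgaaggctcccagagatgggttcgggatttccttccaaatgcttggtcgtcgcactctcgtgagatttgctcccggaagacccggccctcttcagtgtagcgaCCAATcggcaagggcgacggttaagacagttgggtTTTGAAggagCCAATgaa

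Ccnb1: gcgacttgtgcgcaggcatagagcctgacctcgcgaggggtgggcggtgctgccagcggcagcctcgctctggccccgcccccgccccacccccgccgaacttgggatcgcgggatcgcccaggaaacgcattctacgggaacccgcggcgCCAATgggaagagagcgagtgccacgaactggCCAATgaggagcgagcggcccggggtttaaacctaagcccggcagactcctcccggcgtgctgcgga

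Each of the 5 held at least 1 CCAAT match, and Fam83d held 3. TTTGAA was found in Fam83d and Cdc20. Other forms of the element were not searched for, so its absence from the other sequences is not shown. The 5 were picked without a rule: Kif18b and Fam83d were called and Plk1, Cdc20 and Ccnb1 were not, while the called Kif20a and Wee1 are left out. Of all 32851 RefSeq promoters of this length, 33.8% held CCAAT and 16% TTTGAA on either strand. Of the 40 promoters of 38 tested members of the cell cycle list, 80.0% and 27.5% did. A match describes the letters and is not a measured binding site.

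Genes of red blood cells were at lower levels in TLR3-KO, without any call. Of 9 tested members of the erythroid list 0 were called, all 9 had a negative log2 fold change and 7 were lower without overlap between genotypes, beside 3.18% of all genes. Their median was -1.96, and in controls 0.86. Beta-s, a beta globin, was at 58.3, 58.0, 108 and 154 CPM in TLR3-KO and at 402, 255, 571 and 328 CPM in WT (log2 fold change -2.07, SE 0.71, edgeR adjusted p = 0.192). Alas2, the first enzyme of heme synthesis in red cells, averaged 26.1 ± 13.9 and 104 ± 24.8 CPM (SD, n = 4 each; edgeR adjusted p = 0.215). The list summed to between 85.7 and 222 CPM in TLR3-KO and to between 360 and 762 CPM in WT, and Hba-a1 was at 0. The part of red cell RNA in other results was not tested.

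In the pathways downstream of TLR3 each list held 0 or 1 calls, beside 0.618% of all genes, and at that background counts this low say little about lists of this size. Of 27 tested members of TLR3 and TRIF signalling Tlr3 itself was the single call. Next by p came Tab1, a partner of the kinase TAK1, at 14.6 ± 1.16 CPM in TLR3-KO against 11.0 ± 1.14 CPM in WT (SD, n = 4 each; edgeR adjusted p = 0.118), then Ticam2 and Azi2 with adjusted p of 0.339 and 0.343. Of 42 type I interferon-stimulated genes 0 were called, with 20 positive and a median of -0.06. Samd9l and Stat2 had the lowest p of them (log2 fold changes -0.57 and -0.36, edgeR adjusted p = 0.214 and 0.286). Of 34 genes of the interferon gamma response 0 were called (median -0.07), and of 36 inflammatory cytokines and NF-kB genes 0 were (median -0.13). Il1rn, the interleukin 1 receptor antagonist, averaged 654 ± 198 CPM in TLR3-KO against 960 ± 293 CPM in WT (edgeR adjusted p = 0.249). Of 26 chemokine genes 0 were called. Cxcl1, which attracts neutrophils, was at 15.1, 6.87, 7.65 and 16.2 CPM in TLR3-KO and at 1.86, 1.52, 4.09 and 1.12 CPM in WT (log2 fold change 2.40, SE 0.73, edgeR adjusted p = 0.141). DESeq2 called 0 members of the interferon-stimulated, interferon gamma and NF-kB lists and 2 of TLR3 and TRIF signalling. These counts do not show that the pathways acted alike in the genotypes.

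**Figure D5:**
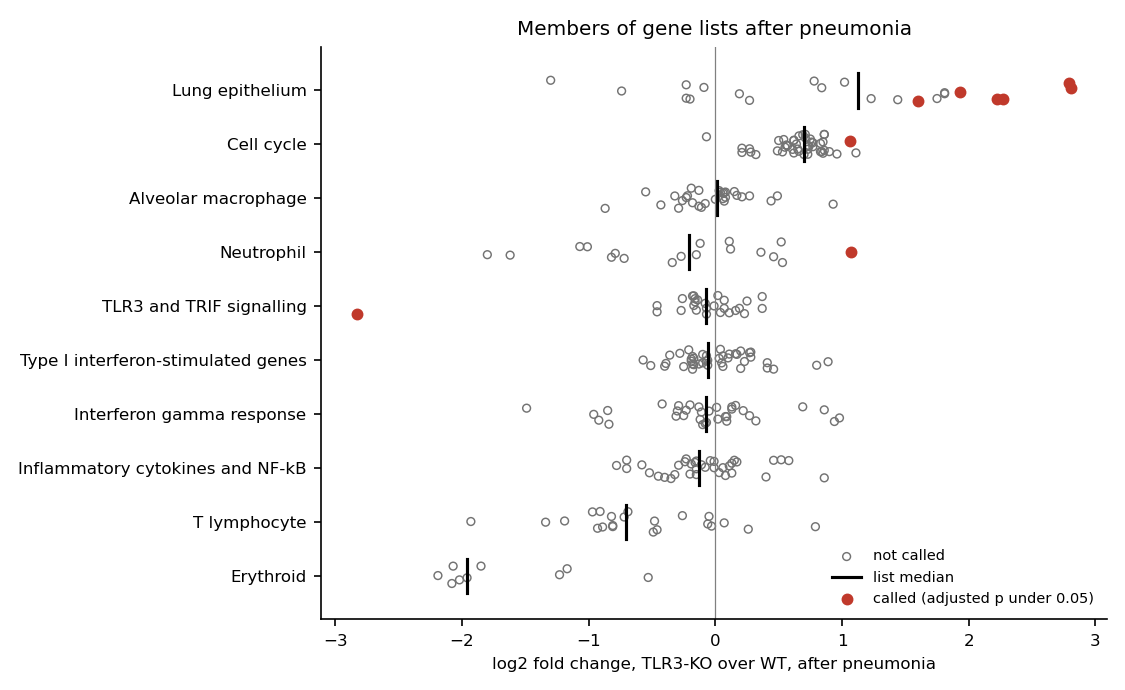
Log2 fold change of TLR3-KO over WT after pneumonia (horizontal axis) for the tested members of 10 gene lists (rows). Filled red points were called, open points were not, and black bars mark the list medians, which are 1.12 for lung epithelium, 0.70 for cell cycle, -0.06 for interferon-stimulated genes and -1.96 for erythroid genes.

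Single genes of immunity and metabolism were called on other chromosomes. Casp1, the caspase that inflammasomes activate to mature interleukin 1 beta, was at 68.1, 65.2, 63.1 and 71.8 CPM in TLR3-KO and at 92.0, 112, 108 and 89.9 CPM in WT (log2 fold change -0.61, SE 0.10, edgeR adjusted p = 0.0171). Of 25 tested genes of the inflammasome and cell death 2 were called, both lower, where the background for lower calls was 0.225%. In that list 18 were negative, with a median of -0.28 after pneumonia and -0.10 in controls. Mmp8, the neutrophil collagenase, was at 47.9, 51.8, 50.0 and 39.4 CPM in TLR3-KO and at 22.7, 17.8, 22 and 25.8 CPM in WT (log2 fold change 1.07, SE 0.21, edgeR adjusted p = 0.0347). It was the only call among 18 tested neutrophil markers. Their median was -0.21. With the untested markers included, 25 summed to between 399 and 772 CPM in TLR3-KO and to between 357 and 1020 CPM in WT. Of these, Elane, Mpo and Stfa3 were at 0. Cxcr1, a receptor of neutrophil-attracting chemokines, was lower at 13.7, 13, 16.2 and 15.6 CPM against 22.1, 31.4, 25.9 and 22.7 CPM (log2 fold change -0.83, SE 0.18, edgeR adjusted p = 0.0452).

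In metabolism, Pdk4, which switches off pyruvate dehydrogenase, was at 17.0, 19.0, 16 and 20.2 CPM in TLR3-KO and at 34.5, 32.1, 35.4 and 26.4 CPM in WT (log2 fold change -0.86, SE 0.15, edgeR adjusted p = 0.0179). It was the only call among 36 genes of lipid handling, Dhcr7 the only one among 24 of cholesterol biosynthesis and Gsr the only one among 31 antioxidant genes. Aqp9, a channel for water and glycerol, was higher by 1.01, Gatm, which starts creatine synthesis, by 1.03 and the mitochondrial folate enzyme Mthfd1l by 1.08. Impact, a regulator of the kinase GCN2, was lower by 0.69 (edgeR adjusted p = 0.0396). Of 22 tested T lymphocyte markers 0 were called, with a median of -0.71 after pneumonia and 1.04 in controls. Sums over 24 markers, the untested ones included, overlapped, at 221 to 285 CPM in TLR3-KO and 236 to 384 CPM in WT.

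Whether the genotype difference itself differed between pneumonia and control was tested as an interaction. By edgeR 0 of 12455 genes were called, the lowest adjusted p was 0.235, and 2217 genes had an unadjusted p under 0.05. DESeq2 called 98, and limma voom 0 with equal library weights and 5087 with quality weights. A call after pneumonia without one in controls, as for the epithelial genes, is therefore not shown by edgeR to be a difference between the states. This test also carries the Xist-positive TLR3-KO controls. In the control comparison, which shares the fit but no library with the one after pneumonia, the epithelial list had 0 called members. Set beside the calls after pneumonia, that count does not show a difference between the states.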

How the data were processed

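RNA of lavage macrophages was measured by TruSeq mRNA sequencing of paired reads of 50 bases, per the labels' protocols. Per the submitters' processing notes, the tools were FastQC 0.11.3, TopHat2 2.0.13, Bowtie2 2.2.1, Cufflinks and Cuffdiff 2.1.1, on mm10. The table deposited by the authors holds raw counts per gene symbol, named as HTSeq output. The HTSeq version, strand setting and annotation are not given in the sources used here. All 16 columns were matched to the 4 groups by their labels.

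Genes passing filterByExpr (minimum count 10, 4 groups) were scaled by TMM and fitted with edgeR 4.0.16 (R 4.3.3), quasi-likelihood, 1 coefficient per group. Benjamini-Hochberg adjustment ran across every tested gene, and genes under 0.05 were called. The SE is the log2 fold change divided by the square root of F. CPM uses raw totals. No 2 libraries of a group were copies (chi-square per degree of freedom at least 8.58). Positions came from GENCODE M21 by symbol, for 12303 of the 12455 tested genes, 76 of the 77 called among them. Upstream sequences came from RefSeq.

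The members and the 38 gene lists were chosen with earlier results of these data known. Named were Tlr3, from called genes averaging at least 5 CPM in a group the 12 with the largest and the 12 with the smallest fold change, up to 4 members per list, and up to 6 genes called in both states. Genes outside the rule were named after their values were seen. Alternatives were RLE factors, DESeq2 1.42.0, limma 3.58.1 voom, other filters, a fit of 2 groups, a replicate block and each library left out. A few called genes are counted in the totals but not reported here by name.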

Additional observations from a re-analysis of the deposited data

Results flagged for a closer look

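In 3 groups of 4 libraries among the 26 genes and 104 groups looked at, 1 library stood far from the other 3. Chance flags about 1 group in 20. Dbp was at 1.94 CPM in WT 1 after pneumonia, against 2.90 to 3.08 CPM in the other WT libraries. Hgsnat was at 55.3 CPM in TLR3-KO 1 after pneumonia, against 58.3 to 58.5 CPM. Fut10 was at 2.23 CPM in TLR3-KO 4 after pneumonia, against 3.03 to 3.09 CPM. None of these libraries reached the levels of the other genotype.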

How the results depend on the processing

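All 77 genes called after pneumonia kept their direction in every alternative that tested them, and of 26 named called genes 10 kept the call in all alternatives that tested them: Tlr3, Cyr61, Adcy4, Msr1, Mfhas1, Erdr1, Wdfy1, Mtmr7, Hgsnat and Fut10. No named gene reversed. The count of 77 became 444 with DESeq2 and 5293 with voom and quality weights. It was 39 where 3 libraries had to reach 5 CPM and 17 to 450 with 1 library left out. In the fit of 2 groups, without the control libraries, it was 155, and 65 of the 77 were among them. RLE factors gave 77, voom with equal weights 72 and no filter 64. In controls the count of 87 became 781 with DESeq2, 146 with RLE factors, 2885 with voom and quality weights, 10 in the fit of 2 groups, 17 to 467 with 1 library left out, and 15 with TLR3-KO control 4 as the only TLR3-KO control, a setting chosen after seeing the data in which the spread comes from the other groups alone. The interaction called 0 genes, but 98 with DESeq2 and 5087 with voom and quality weights. The cause of these shifts was not tested.

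Expression after pneumonia did not follow the replicate numbers of the titles: same-numbered libraries correlated at 0.01, -0.28, 0.12 and -0.49, and 0 of 8 matched their own number best. These correlations cannot show whether same-numbered libraries were collected or handled together. With the replicate block 37 genes were called after pneumonia, 26 of them among the 77, and 1804 in controls. Under the block the calls near Tlr3 numbered 5, those of the cell cycle list 0 and those of the erythroid list 2.

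Over all lists 17 distinct members were called; DESeq2 called 56, voom with quality weights 377, the fit of 2 groups 34, the 5 CPM filter 8, and fits without 1 library 5 to 54. For lung epithelium (6) the same settings gave 12, 16, 11, 0 and 2 to 8. For the cell cycle (1) DESeq2 gave 17, voom 2 with equal and 44 with quality weights, and fits without 1 library 0 to 22. For erythroid genes (0) the fit of 2 groups gave 4 and voom with quality weights 7. TLR3 and TRIF signalling (1) had 2 with DESeq2, 12 with voom and quality weights and 0 with the 5 CPM filter, which removes Tlr3. With voom and quality weights the interferon-stimulated list had 14 calls, interferon gamma 8 and NF-kB 6, where edgeR had 0; without 1 library interferon gamma had 0 to 1. Calls near Tlr3 (10) were 6 within 5 Mb, 16 within 20 Mb, 14 with DESeq2, and, in settings added after seeing the data, 6 with the 5 CPM filter, 26 with voom and quality weights and 4 to 13 without 1 library. The Tlr3 level of 14.3% was 14% with TMM-scaled totals and 12.5% to 15.6% without 1 library, where 3 against 4 libraries cannot give an exact p under 0.0571. Genes under 5 CPM rest on few reads, and differences among them smaller than their spread were not detectable at this depth.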

Other observations

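Some list members that were not called had genotypes that did not overlap after pneumonia, given here as values. Of all genes tested, 9.14% were higher and 3.18% lower in TLR3-KO without overlap. Of 28 tested genes of glycolysis 8 were higher in TLR3-KO without overlap and 0 were called. Pdk1, which restrains entry of pyruvate into mitochondria, averaged 46.7 ± 3.21 CPM in TLR3-KO against 27.5 ± 6.61 CPM in WT (SD, n = 4 each; edgeR adjusted p = 0.0929). Of 22 tested genes of MHC class I and the immunoproteasome 4 were lower without overlap. H2-D1, a classical class I heavy chain, averaged 3362 ± 262 and 4063 ± 222 CPM (edgeR adjusted p = 0.156). Of 30 tested immediate early genes 15 had a positive and 15 a negative log2 fold change, and 2 were lower without overlap. Among them Fos averaged 72.4 ± 13.5 and 130 ± 32.2 CPM (edgeR adjusted p = 0.0651), and Rgs1, a regulator of G protein signalling, 45.2 ± 10 and 96.2 ± 38.0 CPM (edgeR adjusted p = 0.0864). Of 15 tested dendritic cell markers 10 were positive and 5 negative, with a median of 0.17, and 4 were higher without overlap. Fscn1, an actin-bundling protein of mature dendritic cells, averaged 5.81 ± 0.943 and 1.65 ± 0.706 CPM (edgeR adjusted p = 0.0864). Clec9a of the same list went the other way (log2 fold change -0.92, edgeR adjusted p = 0.172). Of 24 tested matrix proteases and inhibitors 3 were higher without overlap, the called Mmp8 among them, and 1 was lower. Timp3, an inhibitor of matrix proteases, averaged 2.39 ± 0.916 and 0.392 ± 0.312 CPM (edgeR adjusted p = 0.075). Of 21 tested genes of iron handling 9 were positive and 12 negative, and 3 were higher without overlap. Steap3, an iron reductase, averaged 6.27 ± 0.447 and 3.26 ± 0.734 CPM (edgeR adjusted p = 0.0651).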
